A study of Ovis aries with 40 samples.

Results

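Longissimus dorsi, the long muscle of the back, was compared between Ujumqin lambs of 1 month and Ujumqin lambs of 2 months, on 3 arrays of each age. These 6 arrays, chosen by the age and breed in the sample titles, were all the arrays of those ages among the 40 of the series. The array carried 15008 probes, of which 1893 had a gene name, 1605 from the files and 288 from sequence matches listed by the study, for 1221 different names. Of 13851 probes tested, 1709 had a name, and they stood for 1150 genes. Ujumqin is an indigenous Chinese sheep breed. The 1-month group held 2 females and 1 male (replicate 3), and the 2-month group held 3 females. Each array was hybridized with Cy3-labelled total RNA of 1 animal, and no treatment of the lambs is given in the labels. The label descriptions call this muscle fetal, while titles and stages give the postnatal ages, which were used. No label says whether lambs shared a dam, so the p-values measure the spread between these animals. The 3 Ujumqin arrays taken at birth and the 3 of the last fetal stage were fitted together with these 6 arrays. The fetal arrays are labelled U135, where U stands for Ujumqin and the number is the day of gestation. Replicate 3 at birth was male, the other birth lambs were female, and the U135 fetuses were all female. The rest of the series covers earlier Ujumqin fetuses and Texel fetuses.

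After birth, skeletal muscle grows mainly by enlargement of the fibres already formed, to which satellite cells add nuclei, and the muscle-specific transcription factors MYOD1, MYF5, MYOG and MYF6 direct that differentiation. Insulin-like growth factor 2 is a growth factor of fetal tissues, while insulin-like growth factor 1, under growth hormone, takes over as the animal grows. Muscle also holds fat cells, fibroblasts, vessels and leukocytes, whose RNA enters a whole-tissue sample, and heat-shock proteins and cytokines are produced by muscle fibres themselves under load, heat or injury. In such tissue, fewer cells of a type and less RNA per cell cannot be told apart.

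The labelled tissue and sex were borne out by the values. All 11 skeletal muscle markers tested, among them ACTN3, CASQ1, MB and MYH1, were well above background on each of the 6 arrays, and none was called. Their summed signal ran from 2.26e+06 to 2.30e+06 at 1 month and from 2.11e+06 to 2.18e+06 at 2 months, lower without overlap. The Y-linked gene USP9Y read 3.87, 4.04 and 12.73 on the log2 scale at 1 month and 2.39, 2.02 and 2.99 at 2 months, so only the male lamb was high. Between 85.6% and 87.5% of spots were well above background at 1 month and between 82.6% and 84.4% at 2 months, with means of 86.6% ± 0.929 and 83.5% ± 0.904 (SD, n = 3 each). The 2 ages did not overlap in this share (exact permutation test, two-sided p = 0.1, the smallest possible with 3 against 3). The median signal was 264 ± 15.7 at 1 month and 232 ± 18.2 at 2 months before scaling (SD, n = 3 each; exact permutation test, two-sided p = 0.2), and no spot was saturated. The 1-month arrays lay on slide 3 and the 2-month arrays on slide 5, which also held the U135 arrays, so within these 6 arrays the effect of age cannot be told apart from that of slide.

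Few probes were called between 1 and 2 months, and with 3 arrays per age a probe not called may still have changed. A change was called where limma gave an adjusted p under 0.05 and a difference of 2-fold or more. By that rule 413 probes were called (2.98% of those tested), of which 99 rose (0.715%) and 314 fell (2.27%), while the median difference over all tested probes was 0.01 on the log2 scale. Among probes with a gene name, 32 rose (1.87%) and 66 fell (3.86%), for 24 and 61 gene names. With each gene taken by its brightest probe, 1.83% of the 1150 genes rose and 3.91% fell, and these shares are the background for the gene lists. Probes of both directions were found at every signal level, and when the probes were ranked by signal and divided into 4 groups of like size, 35 rose and 99 fell in the dimmest group and 8 rose and 38 fell in the brightest. Arrays of the 2 ages did not overlap for 1940 probes that were higher at 2 months (14.0%) and 2192 that were lower (15.8%). Without adjustment, 289 probes were higher (2.09%) and 484 lower (3.49%) at a p under 0.05 with 2-fold. The step before, from birth to 1 month, shares the 1-month arrays with this comparison and had 998 called probes (7.21%), 563 higher (4.06%) and 435 lower (3.14%). The 2 steps differed from each other by the same rule for 662 probes (4.78%), of which 245 changed more upward after 1 month than before it (1.77%) and 417 more downward (3.01%).

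**Figure D1:**
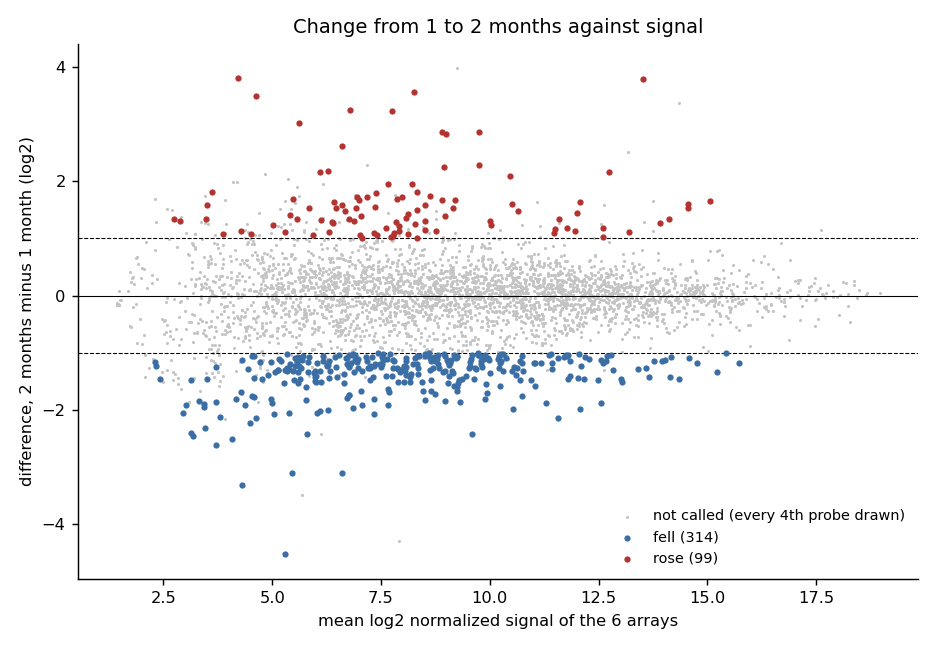
Difference between 2 months and 1 month on the log2 scale (vertical axis) against the mean log2 normalized signal of the 6 arrays (horizontal axis) for each tested probe. Red points rose (99), blue points fell (314), grey points were not called and are drawn for every 4th probe, and dashed lines mark a 2-fold change. Called probes lie along the whole range of signal, and more of them are below the line of no difference than above it.

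The excess of falling over rising probes depended on how the arrays were scaled. Scaling to the 75th percentile of each array gave 73 rising and 800 falling probes, so that 91.6% of the called probes fell, against 76.0% after quantile normalization. With no scaling the counts were 64 and 802. These settings moved the median of all probes to -0.11 and -0.13, and each gene is given relative to the quantile-normalized median. With slide as a term in a fit of all 40 arrays, 13 probes rose and 48 fell. The median standard error rose from 0.22 to 0.49. Slide 5 is tied to the other slides in that fit only by the Texel fetuses labelled T135. Replicate 1 of these lay on slide 4, with 81.3% of its spots well above background, and replicates 2 and 3 lay on slide 5. Each slide-term value for the 2-month lambs therefore depends on that 1 array on slide 4. Of the probes called here, 83 of the 99 that rose and 212 of the 314 that fell kept their sign in that fit (83.8% and 67.5%), against 61.8% of all tested probes, and 8 of the 413 were called in both fits. Of the 314 probes that fell, 40.8% were also at least 2-fold lower on the U135 arrays of the same slide than at birth, against 12.1% of all tested probes. Of the 99 that rose, 21.2% were at least 2-fold higher on the U135 arrays than at birth, against 10.96% of all tested probes.

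Heat-shock genes were among those that rose most. HSPA6, an inducible chaperone of the HSP70 family, read 13.55, 9.98 and 11.32 (log2 signal) on the 3 arrays of 1 month and 15.25, 15.31 and 15.63 on those of 2 months. The 2-month arrays lay close together and above each 1-month array, and the difference was 3.78 (SE 0.70, adjusted p = 0.0138), or 13.7-fold. At birth the same probe had read between 4.34 and 5.55 and at U135 between 5.53 and 6.01, so the step from birth to 1 month was larger, at 6.60 (adjusted p = 0.000945). DNAJB1, an HSP40 co-chaperone that works with HSP70, read 5.43, 3.58 and 3.29 at 1 month, where 1 of the 3 arrays was well above background, and 7.96, 6.79 and 6.61 at 2 months. It rose by 3.02 (SE 0.64, adjusted p = 0.0232), and the ages did not overlap. HSPA1A, the main stress-inducible HSP70, had 2 probes, which read from 13.36 to 14.89 and from 13.22 to 14.62 at 1 month and from 15.08 to 15.66 and from 15.09 to 15.48 at 2 months. Their differences were 1.45 (adjusted p = 0.077) and 1.60 (adjusted p = 0.0483), so that the dimmer one alone passed. HSPA6 remained called whichever of the 6 arrays was left out, while DNAJB1 was lost without replicate 2 or 3 of 1 month or replicate 1 of 2 months, with adjusted p-values up to 0.084.

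Other genes of the stress, atrophy and glucocorticoid list did not pass the test. Of its 21 tested genes, HSPA6 and DNAJB1 rose and none fell, where 1.83% and 3.91% of all genes did. In the list 16 of the 21 differences were positive, and their median was 0.25 against -0.02 over all 1150 named genes. CRYAB, the small heat-shock protein of muscle, read 17.60, 16.75 and 16.74 at 1 month and 17.74, 18.28 and 18.52 at 2 months, with no overlap (difference 1.15, adjusted p = 0.0677). For HSP90AA1, the inducible HSP90, the values were 13.03, 12.61 and 12.47 and then 13.41, 13.30 and 13.59 (difference 0.73, adjusted p = 0.0698). The immediate early genes EGR1 and FOS, transcribed within minutes of a stimulus, differed by 1.66 and 1.65, and their arrays overlapped between the ages (adjusted p = 0.126 and 0.286). FBXO32, the atrophy ubiquitin ligase atrogin-1, differed by 1.28 with overlap (adjusted p = 0.124). DDIT3, a transcription factor of the endoplasmic reticulum stress response, was outside the list and the naming rule and is given after its values were seen: its 2 probes rose by 1.29 and 1.09.

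Inflammatory cytokines formed the next group. IL6, a cytokine of leukocytes and of working muscle, was not well above background on any 1-month array, where it read 3.78, 1.56 and 1.56, and was so on all 3 arrays of 2 months, at 4.76, 7.88 and 5.69. It was at least 5.07-fold higher at 2 months (adjusted p = 0.0195), and the ages did not overlap. With slide as a term this difference was -0.026 (SE 1.54). CXCL8, interleukin 8, which draws neutrophils, read 8.08, 8.96 and 8.80 at 1 month and 10.50, 11.36 and 10.79 at 2 months. All 2-month lambs were higher, by 2.28 (SE 0.28, adjusted p = 0.00333), its other probe rose by 3.55, and the call held with each array left out. CXCL1, another neutrophil chemokine, moved the opposite way, from 15.48, 14.95 and 14.91 to 14.25, 13.82 and 14.00, a fall of 1.09 (SE 0.20, adjusted p = 0.0128) that both of its probes gave and that turned to 1.55 with the slide term. Of 21 cytokine and chemokine genes tested, 2 rose and 1 fell, where 1.83% and 3.91% of all genes did, so the falls were near the background share. The median difference was 0.83. This median was -0.03 with slide as a term and 0.50 with 75th percentile scaling. IL1RN, the receptor antagonist of interleukin 1, read 1.56, 2.78 and 3.42 and then 5.28, 5.08 and 3.59 without overlap, with no 1-month array well above background. It was at least 1.85-fold higher at 2 months by this bound and did not pass (adjusted p = 0.0953).

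Genes of leukocytes rose in part. RGS1, a regulator of G protein signalling in lymphocytes, read 7.86, 7.97 and 6.62 at 1 month and 9.52, 10.97 and 10.51 at 2 months, a rise of 2.85 (SE 0.58, adjusted p = 0.0195) without overlap. It had already been 3.45 higher at 1 month than at birth (adjusted p = 0.00472). CLEC4E, the macrophage receptor Mincle, read 4.59, 5.23 and 5.74 and then 6.91, 8.03 and 7.18. Both of its probes rose, by 2.18 and 2.16 (adjusted p = 0.0255 and 0.0245), while the step from birth to 1 month differed by -0.08 on the brighter one. CD86, a costimulatory molecule of antigen-presenting cells, read 7.79, 8.56 and 8.22 at 1 month and 9.48, 9.34 and 9.16 at 2 months. It rose by 1.13 (adjusted p = 0.0483), just past the threshold, lost the call whichever array was left out, and read -1.27 with the slide term. SLC11A1, a metal transporter of macrophage phagosomes, read 6.06, 6.64 and 6.25 and then 9.24, 7.04 and 7.82, a rise of 1.72 (SE 0.43, adjusted p = 0.0406) shared by both probes. Its 2-month values were widely spread and lay above those of 1 month, and the slide term turned the difference to -0.91.

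Across the leukocyte list, 33 genes were tested, of which CD86, CLEC4E and RGS1 rose, TCRA, a T cell receptor chain, fell, and 29 were not called. Over all genes 1.83% rose and 3.91% fell, so the 1 fall is near the background share. The median difference was 0.31, and it was -0.80 with slide as a term. Without overlap, 10 of the 33 genes were higher and 5 lower, where 14.0% and 15.8% of all tested probes were. The T cell receptor subunits CD3D and CD3E and the T cell antigen CD5 were higher on every 2-month array, by 0.97, 0.85 and 0.93, and none passed (adjusted p = 0.0940, 0.117 and 0.0833). CD8A, another T cell marker, was lower on every 2-month array, by 0.65 (adjusted p = 0.305). ITGAM, an integrin of leukocytes, differed by -0.30 with overlap (adjusted p = 0.737). CD4, the coreceptor of helper T cells, had 2 dim probes of opposite sign, with differences of -1.42 (adjusted p = 0.0815) and 1.30 (adjusted p = 0.0285), so no direction is given. The summed signal of 7 leukocyte markers ran from 2236 to 2669 at 1 month and from 2969 to 4623 at 2 months, so the ages were apart while none of the 7 markers was called. The part of leukocyte number in these rises was not tested. Of 61 immunoglobulin chain probes, 1 rose and 1 fell, with a median of -0.12, and none of 24 major histocompatibility complex probes was called. Over all tested probes 0.715% rose and 2.27% fell, so these counts are near the background share.

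**Figure D2:**
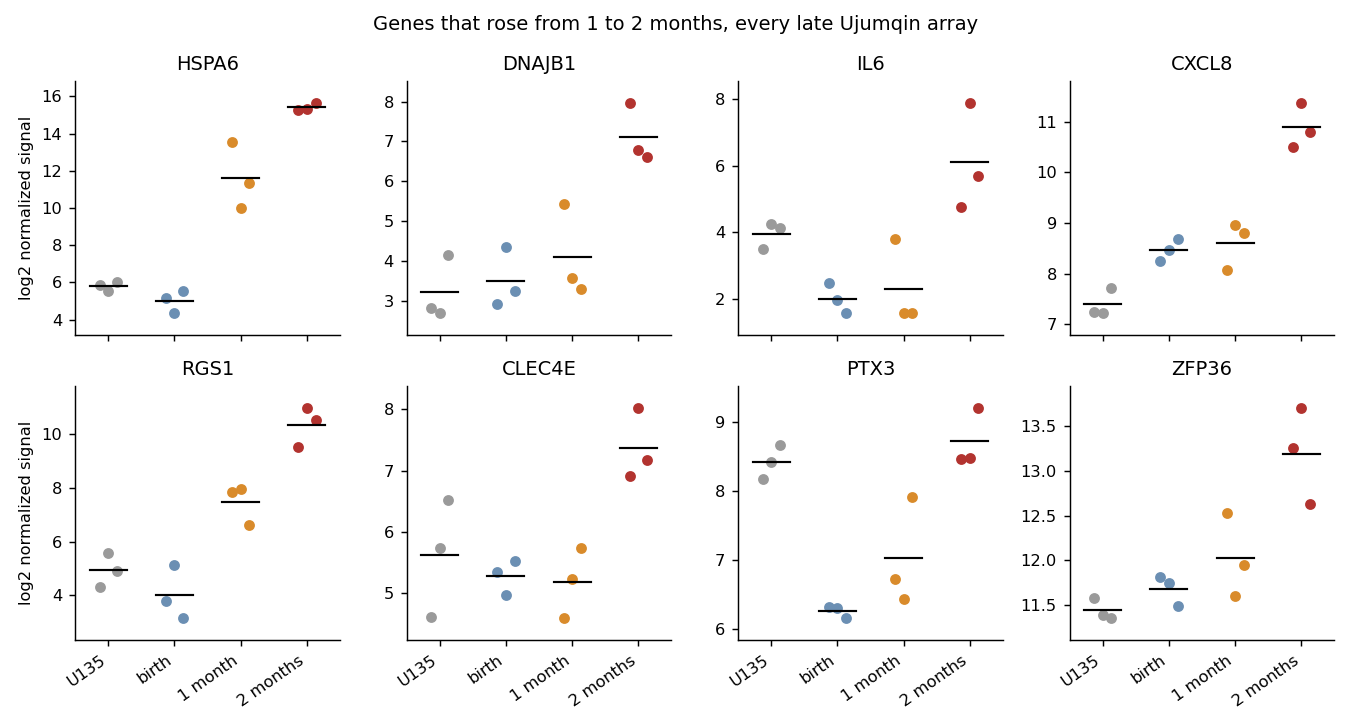
Log2 normalized signal (vertical axes, each with its own range) of 8 genes that rose from 1 to 2 months, for the 3 arrays each of U135, birth, 1 month and 2 months (horizontal axis). Points are single lambs or fetuses and bars are group means. HSPA6 and RGS1 rose in both postnatal steps, while the probes of CXCL8 and CLEC4E drawn here were not called from birth to 1 month and rose after it.

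Other genes that rose came in by the size of their change. PTX3, a secreted pattern recognition protein, read 6.72, 6.44 and 7.92 at 1 month and 8.47, 8.49 and 9.21 at 2 months, a rise of 1.70 (SE 0.35, adjusted p = 0.0198) with no overlap. Its U135 arrays, from 8.18 to 8.67, were near the 2-month values and the birth arrays, from 6.16 to 6.32, were lower. ICAM1, the adhesion molecule to which leukocytes bind on vessel walls, read 6.89, 6.76 and 6.14 and then 7.74, 8.50 and 8.18, a rise of 1.54 (adjusted p = 0.0424) that no fit with an array left out kept. ZFP36, tristetraprolin, which speeds the decay of cytokine messages, read 12.53, 11.59 and 11.94 and then 13.25, 13.71 and 12.63. Both probes rose, by 1.18 (adjusted p = 0.0382) and 1.94 (adjusted p = 0.011). RGS2, a relative of RGS1 that dampens Gq signalling, read 9.45, 8.12 and 7.49 and then 10.46, 10.25 and 9.37, so the ages overlapped slightly, and it rose by 1.67 (adjusted p = 0.044).

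Interferon-stimulated genes had positive differences without any call. All 15 tested had a positive difference, from 0.03 to 1.64 with a median of 0.86, and none passed the test. For ISG15, a ubiquitin-like modifier, the values were 10.47, 9.75 and 10.56 at 1 month and 12.94, 12.24 and 10.51 at 2 months (difference 1.64, adjusted p = 0.116). OAS1, which senses double-stranded RNA, read 5.63, 4.90 and 5.87 and then 7.78, 7.73 and 5.44, and MX1, an antiviral GTPase, read 10.57, 9.84 and 11.07 and then 12.50, 12.33 and 10.59. In these genes replicates 1 and 2 of 2 months were high, and replicate 3 lay within the 1-month range. CXCL10, a chemokine induced by interferon gamma, read 12.65, 7.48 and 9.83 at 2 months, so replicate 1 alone stood above the 1-month values of 8.64 to 9.45. Without replicate 1 of 2 months the median of the list was 0.27 with no call, without replicate 2 it was 1.14 with 1 gene rising, and without replicate 3 it was 0.88 with 3 genes rising. With all arrays it was 0.62 with 75th percentile scaling and 0.24 with slide as a term.

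**Figure D3:**
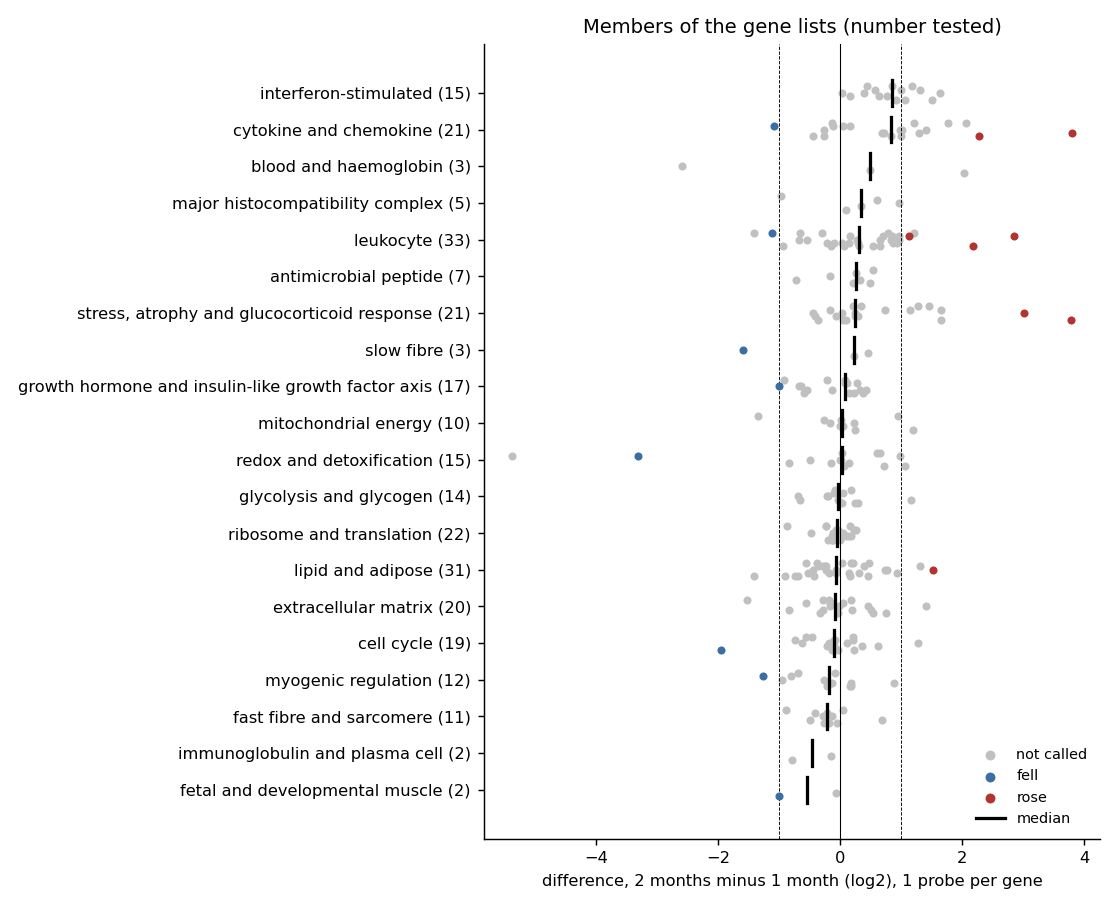
Difference between 2 months and 1 month on the log2 scale (horizontal axis) for each tested gene of 20 gene lists, 1 probe per gene, with the number tested in parentheses. Red and blue points rose and fell, grey points were not called, short black bars are list medians and dashed lines mark a 2-fold change. The interferon-stimulated and cytokine lists have the highest medians (0.86 and 0.83), while the glycolysis, mitochondrial and ribosome lists have medians of -0.03, 0.03 and -0.05.

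Of the contractile genes tested, only TPM2 was called. Of 11 fast fibre and sarcomere genes none was called, and their median difference was -0.22. Their differences ran from -0.88 to 0.69, and 9 of the 11 were negative. Without overlap, 4 of the 11 were lower and none higher, where 15.8% of all tested probes were lower. MYH2 (-0.50) and CAPN3 (-0.28) were among those lower without overlap. The fast fibre genes ACTN3 (α-actinin of the Z line), MYH1 (the IIx myosin heavy chain), CASQ1 (the calcium store protein) and TMOD4 (a cap of thin filaments) differed by -0.27, -0.19, -0.41 and -0.22, with adjusted p-values from 0.171 to 0.573. Among ACTN3, MYH1, CASQ1 and TMOD4, only CASQ1 had no overlap between the ages, with 14.80, 14.88 and 14.53 at 1 month and 14.49, 14.17 and 14.32 at 2 months. MYH7, the slow myosin heavy chain, read 11.19, 11.03 and 11.19 and then 11.38, 12.04 and 11.34, higher on each 2-month array by a mean of 0.45 (adjusted p = 0.261). Myoglobin (MB), which stores oxygen in fibres, and MYL6B, a myosin light chain of slow and fetal fibres, differed by 0.23 and -0.07. TPM2, β-tropomyosin, lines thin filaments mainly in slow fibres. It was the 1 called gene of the 3 slow fibre genes, where 3.91% of all genes fell. It read 10.41, 9.65 and 10.07 at 1 month and 8.59, 8.93 and 7.82 at 2 months, a fall of 1.60 (SE 0.37, adjusted p = 0.0331) without overlap. TPM2 had risen by 1.28 from birth to 1 month (adjusted p = 0.0377), and at birth it read 9.10, 8.06 and 9.14. Its call was lost in 5 of the 6 fits that left out an array, with adjusted p-values up to 0.0964.

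Of the myogenic transcription factors, MYOG was the 1 called. MYOG, myogenin, which drives myoblasts to fuse and differentiate, read 11.48, 11.25 and 11.05 at 1 month and 10.28, 9.59 and 10.11 at 2 months, a fall of 1.27 (SE 0.23, adjusted p = 0.0137) without overlap. The call held with each array left out. A dimmer MYOG probe, at 7.73, 8.15 and 8.09 and then 8.36, 7.83 and 7.35, differed by -0.14 (adjusted p = 0.801), so the 2 probes of the gene disagree. The MYOG level at birth, from 11.15 to 11.54, was like that at 1 month. MYOD1, which commits cells to the muscle lineage, read 13.17, 14.15 and 15.07 at 1 month and 13.42, 13.02 and 13.09 at 2 months, with overlap and a difference of -0.96 (adjusted p = 0.189). MYF5, an early factor of satellite cells, read 6.22, 6.54 and 7.24 and then 8.08, 6.91 and 7.67, a difference of 0.89 (adjusted p = 0.112). From birth to 1 month MYF5 had fallen by 1.31 (adjusted p = 0.0175), and its second probe differed by 0.76 from 1 to 2 months (adjusted p = 0.173). MYF6 was not analysed here. The 12 myogenic genes tested had a median difference of -0.17, and 11 of them were not called. Over all genes 3.91% fell.

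In the growth hormone and insulin-like growth factor axis, IGF2 fell and 16 other genes did not pass, a share near the 3.91% of all genes that fell. IGF2 read 15.67, 16.35 and 15.76 at 1 month and 15.01, 15.21 and 14.54 at 2 months, a fall of 1.01 (SE 0.25, adjusted p = 0.0397). The U135, birth, 1-month and 2-month means of IGF2 were 17.17, 16.70, 15.92 and 14.92, so that each stage was lower than the one before. Its second probe gave -1.09 (adjusted p = 0.0711), the call was lost whichever array was left out, and the slide term gave -0.33. IGF1, the growth factor that acts downstream of growth hormone, read 9.41, 9.49 and 9.33 at 1 month and 8.76, 9.05 and 8.65 at 2 months, lower on every 2-month array by a mean of 0.59 (adjusted p = 0.0845). The growth hormone receptor (GHR), the IGF1 receptor (IGF1R) and the binding protein IGFBP5 differed by 0.08, 0.32 and -0.68, with adjusted p-values of 0.941, 0.461 and 0.175. The list median was 0.08, and it was -0.08 with 75th percentile scaling.

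The energy metabolism lists held 1 call by the brightest probe of each gene. None of 14 glycolysis and glycogen genes and none of 10 mitochondrial genes was called, and their medians were -0.03 and 0.03. SLC2A4, the insulin-responsive glucose transporter GLUT4, read 14.65, 14.92 and 14.97 at 1 month and 14.03, 14.26 and 14.16 at 2 months, a difference of -0.70 (adjusted p = 0.0758). Where 1.83% of all genes rose, only INSIG1, which restrains sterol synthesis, rose among 31 lipid and adipose genes. It read 9.06, 8.002 and 8.13 and then 9.79, 10.26 and 9.74, a rise of 1.53 (SE 0.35, adjusted p = 0.0305) without overlap. FASN, the fatty acid synthase, read 7.02, 6.81 and 6.98 and then 5.88, 6.26 and 5.95. It differed by -0.90 (adjusted p = 0.039), short of 2-fold. PLIN1, the lipid droplet coat of fat cells, had 2 probes at -0.69 (adjusted p = 0.028) and -1.04 (adjusted p = 0.0138), of which the second was called. PLIN5, the droplet coat of oxidative tissues, named after its values were seen, rose on both probes, by 1.23 and 1.30. Lipoprotein lipase (LPL), stearoyl-CoA desaturase (SCD), the leptin receptor (LEPR) and PDK4, the kinase that turns muscle from glucose to fat, differed by 0.15, 0.03, 0.16 and 0.21, all with overlap between the ages.

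Few calls were made among matrix, proliferation and translation genes. None of 20 extracellular matrix genes was called, with a median of -0.09. Differences ran from -1.52 to 1.40 in the matrix list and from -1.95 to 1.27 in the cell cycle list. COL1A1 and COL3A1, the main fibrillar collagens, differed by -0.16 and -0.33 with overlap. Of 19 cell cycle genes only CENPE, a kinetochore motor, fell, where 3.91% of all genes did. It went from 4.30, 4.09 and 4.79 to 3.94, 1.65 and 1.76, and no 2-month array was well above background. It was at least 1.02-fold lower (adjusted p = 0.043), a bound that allows almost no change. No gene among 22 of ribosome and translation was called by its brightest probe, and the median was -0.05. EEF1A2, the elongation factor of muscle and nerve, read 18.52, 18.35 and 18.17 and then 18.52, 18.53 and 18.50 (difference 0.17, adjusted p = 0.518). RPS25 had 4 probes, of which 1 dim one fell, by 1.31, and the 2 bright ones differed by -0.11 and 0.02.

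Redox and blood genes held large single differences. TXNRD1, thioredoxin reductase, read 5.84, 6.58 and 5.47 at 1 month and 3.65, 2.79 and 1.50 at 2 months, where no array was well above background. It was at least 3.02-fold lower at 2 months (adjusted p = 0.00801), without overlap and with each array left out. The largest difference of all tested probes was that of CYP1A1, a cytochrome P450 induced by aryl hydrocarbons, which was singled out after its values were seen. It read 12.97, 14.19 and 11.58 at 1 month and 6.28, 5.61 and 10.69 at 2 months, a difference of -5.39 (SE 1.47) that did not pass (adjusted p = 0.0539). The birth arrays read from 11.49 to 12.38, and the U135 arrays from 1.44 to 6.35, so 2 of the 3 lambs of 2 months were near the fetal level and the third was not. Of the 15 redox and detoxification genes, TXNRD1 alone was called, where 3.91% of all genes fell. Haemoglobin β (HBB) read 13.90, 13.08 and 14.71 and then 12.11, 9.71 and 12.11, lower on every 2-month array by a mean of 2.59 (adjusted p = 0.144). The other 2 tested genes of the blood and haemoglobin list, AHSP and CA1, had positive differences, up to 2.03. None of the 3 was called. The share of blood left in the samples was not tested.

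The genes that fell most are known for different roles. TRRAP, a scaffold of histone acetyltransferase complexes, read 7.67, 8.49 and 8.33 at 1 month and 4.89, 5.55 and 4.75 at 2 months, a fall of 3.10 (SE 0.47, adjusted p = 0.00675). The 1-month arrays stood above all other stages, since the step from birth to 1 month was a rise of 1.96 (adjusted p = 0.0189). BLOC1S2, a subunit of a complex of lysosome-related organelles, showed the same shape, with 6.74, 6.82 and 6.49 and then 4.96, 4.99 and 4.65, a fall of 1.82 (adjusted p = 0.00282) after a rise of 1.37. The slide term turned BLOC1S2 to 0.64. WDR26, a subunit of a ubiquitin ligase, read 6.06, 6.26 and 5.31 and then 4.02, 4.33 and 3.86, not well above background on any of the 3, and was at least 2.75-fold lower (adjusted p = 0.00343), with 0.79 under the slide term. GNB4, a G protein β subunit, read 6.83, 7.16 and 7.33 and then 5.81, 5.78 and 3.67, a fall of 2.02 (adjusted p = 0.0326). CHRM3, a muscarinic acetylcholine receptor, went from 4.47, 4.02 and 4.64 to 2.96, 1.71 and 2.79, not well above background, and the bound was at least 1.01-fold (adjusted p = 0.0493).

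Both probes of NOS2 and of PTGER4 fell. NOS2, the inducible nitric oxide synthase, read 8.38, 8.04 and 8.32 at 1 month and 7.42, 6.48 and 5.42 at 2 months, a fall of 1.81 (SE 0.44, adjusted p = 0.0384) that its other probe shared, at -1.74. The slide term gave 0.29. PTGER4, the EP4 receptor of prostaglandin E, read 9.70, 9.84 and 9.72 and then 8.58, 8.14 and 8.34, a fall of 1.40 (SE 0.20, adjusted p = 0.0052). Its other probe fell by 1.85, and the U135 arrays, from 6.69 to 7.49, were lower still than those of 2 months, while the slide term gave 0.16. RAB28, a small GTPase, GRP, gastrin-releasing peptide, and GJB2, connexin 26, fell on 1 dimmer probe each. For these 3 genes the brightest probe differed by -1.04 (adjusted p = 0.0668), -0.65 (adjusted p = 0.0335) and -0.17 (adjusted p = 0.574), so none was called by it. The other 43 gene names with a falling probe had differences from -1.79 to -1.03, among them TGFBR3, the type III receptor of transforming growth factor β (-1.32 and -1.11), and CAV1, caveolin 1 (-1.36).

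**Figure D4:**
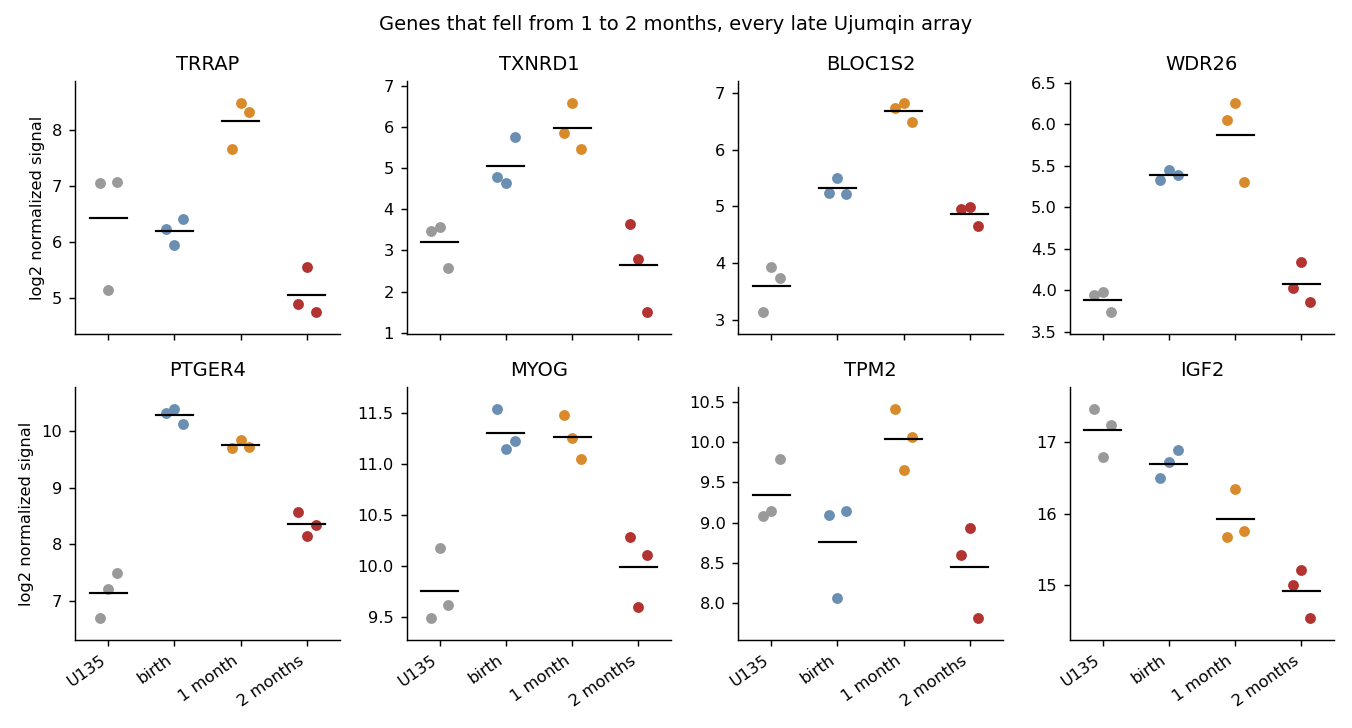
Log2 normalized signal (vertical axes, each with its own range) of 8 genes that fell from 1 to 2 months, for the 3 arrays each of U135, birth, 1 month and 2 months (horizontal axis). Points are single lambs or fetuses and bars are group means. TRRAP, BLOC1S2 and TPM2 were highest at 1 month, and IGF2 was lower at each later stage.

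Markers of skin fell in part. The summed signal of 6 keratinocyte, skin and wool markers ran from 1202 to 1327 at 1 month and from 558 to 637 at 2 months, and KRT27, a hair follicle keratin, was not well above background on any of the 6 arrays. KRT72, a hair root sheath keratin, and KRTAP12-2, a wool keratin-associated protein, fell by 1.54 (adjusted p = 0.0499) and 1.50 (adjusted p = 0.00333), and the other 4 markers were not called. Over all genes 3.91% fell. Of 13 probes described as keratin or keratin-associated, 1 fell and none rose, where 2.27% and 0.715% of all tested probes did. Their median was -0.20, with differences from -1.34 to 0.72. The part of skin or wool RNA in the falls was not tested. The 1 nerve and Schwann cell marker tested, STMN2, ran from 1478 to 2290 at 1 month and from 606 to 1256 at 2 months, apart but not called (difference -1.11, adjusted p = 0.469). Summed adipocyte, fibroblast and endothelium markers overlapped between the ages.

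Most called probes had no gene name. Among 12142 such probes, 67 rose (0.552%) and 248 fell (2.04%). The largest rise among these, of probe A_70_P010536, went from 1.52, 2.46 and 4.66 to 5.76, 7.15 and 6.21, a difference of 3.49 (adjusted p = 0.04). Probes A_70_P035871 and A_70_P012356 rose by 3.25 and 3.24. Probe A_70_P049946 fell from 8.51, 7.03 and 7.13 to 4.09, 3.45 and 1.56, not well above background, and was at least 9.13-fold lower (adjusted p = 0.0146). It had also been near background at birth, from 1.39 to 3.48, so that the 1-month arrays stood apart from the others. Probes A_70_P033431 and A_70_P059171 were at least 6.12-fold and 1.57-fold lower at 2 months.

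Calls rested on few arrays. Over all 1150 genes, 21 rose and 45 fell by their brightest probe. The naming rule picked 26 of these, 13 rising and 13 falling, and 8 of the 26 remained called whichever array was left out. These were HSPA6, CXCL8, BLOC1S2, MYOG, PTGER4, TRRAP, TXNRD1 and WDR26. For the TRRAP and TXNRD1 probes, the paper gives these names by sequence match to human genes. The HSPA6, BLOC1S2, MYOG and WDR26 probes are likewise described only as cDNA sequences, with no gene in the description. Another 4 of the 26, CD86, CHRM3, ICAM1 and IGF2, were lost whichever array was left out. With slide as a random block over all 40 arrays, at a fitted correlation within slides of 0.04, 18 of the 26 calls held. The 2 ages lay on different slides, so this block cannot separate slide from age. With slide as a term 18 kept their direction and none its call. Without replicate 2 of 1 month the count over all probes was 40 rising and 179 falling.

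**Figure D5:**
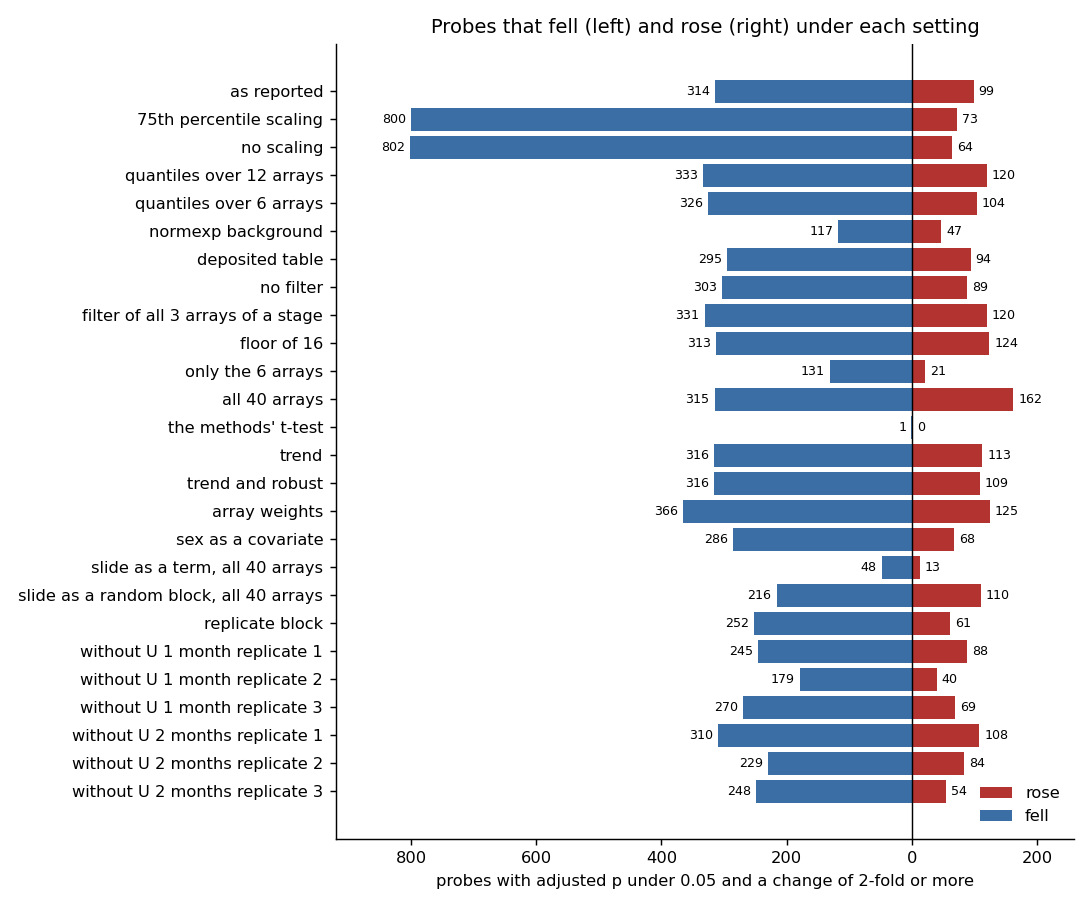
Number of probes that fell (blue, left of 0) and rose (red, right of 0) between 1 and 2 months under each setting of the analysis, 1 setting per line, with the counts beside the bars. The horizontal axis counts probes, called as in the text except where the setting names another threshold or test. More probes fell than rose under each setting drawn, and the counts ran from 1 with the methods' t-test to 873 with 75th percentile scaling.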

How the data were processed

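Longissimus dorsi RNA was measured on 1-colour Agilent sheep arrays. Per the file headers, the scanner files give spot intensity that the authors extracted with Agilent Feature Extraction 10.5 by subtracting background, without scaling between arrays. The authors also deposited a table of quantile-normalized log2 values, used here as an alternative. Control and outlier spots were left out, spots of a probe were averaged (15208 spots, 15008 probes), and the 40 arrays were quantile-normalized together, given a floor of 1 and expressed as log2.

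The test covered 13851 probes, each well above background on 1 or more of the 12 Ujumqin arrays from U135 to 2 months. Under R 4.3.3, limma 3.58.1 fitted 4 group means to those arrays, with Benjamini-Hochberg adjustment of the p-values over all tested probes. A gene is given by its brightest probe. Folds are lower bounds where the dimmer age had no array well above background, computed against the lowest signal well above background on each dim array or the probe's own value if higher. On simulated arrays with 200 of 13851 probes changed, 166 were found with 4 others, and 0 were called with none changed. The simulated noise was independent between probes and held no slide effect, and every seeded change was larger than the median called change. These counts therefore check the code and give no rate of false or missed calls for the real arrays. Precision is limited by the 3 arrays per age.

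The rule for named genes took up to 12 genes per direction with the largest change without overlap, up to 4 called members of each gene list, a fixed set of growth and fibre genes, and up to 3 unnamed probes per direction. Members of the lists with values close to the threshold, and genes said to be chosen after their values were seen, were added to it. The arrays, gene lists and tests were chosen with earlier results of these data known. Alternatives changed the scaling, background, input, filter, floor, test, threshold, arrays, trend, weights, sex, slide and replicate number. Probes were not placed on a genome, and no probe sequence is shown. Tables and figures were made with pandas 2.3.3, matplotlib 3.10.9, scipy 1.17.1 and numpy 2.4.6 under Python 3.11.15.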

Additional observations from a re-analysis of the deposited data

Results flagged for a closer look

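For 8 genes of the naming rule, the change from 1 to 2 months differed from the change from birth to 1 month. The threshold in limma's test of that difference was an adjusted p under 0.05 with 2-fold or more. TRRAP, TXNRD1, BLOC1S2, WDR26, RAB28 and CXCL8 were picked for a large change from 1 to 2 months. That change is part of the difference tested, so the test gives no separate support for them. The 1-month arrays enter both steps with opposite sign, so an array high or low at 1 month moves both. The change after 1 month was the lower one for TRRAP (-5.07, adjusted p = 0.0109), TXNRD1 (-4.22, adjusted p = 0.0330), BLOC1S2 (-3.19, adjusted p = 0.00369), TPM2 (-2.87, adjusted p = 0.0347), WDR26 (-2.29, adjusted p = 0.0139) and RAB28 (-2.25, adjusted p = 0.0385), each value being the log2 change after 1 month minus that before it. For CXCL8, a neutrophil chemokine, this value was 2.13 (adjusted p = 0.0370), and for MYF5, a factor of satellite cells, it was 2.20 (adjusted p = 0.0439). The second probes of CXCL8 (2.39, adjusted p = 0.0791) and MYF5 (1.81, adjusted p = 0.0810) did not pass. TRRAP, BLOC1S2 and TPM2 were called in both steps. Not called were the steps before 1 month of TXNRD1 (0.91), WDR26 (0.49) and CXCL8 (0.15) and those after it of RAB28 (-1.04) and MYF5 (0.89). Birth, 1-month and 2-month arrays lay on slides 1, 3 and 5, and the part of slide in these differences was not tested. Groups of 3 arrays were not searched for single arrays standing apart.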

How the results depend on the processing

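The count of 413 probes called between 1 and 2 months became 873 with 75th percentile scaling, 866 with no scaling, 164 with normexp background, 152 with only the 6 arrays in the fit, 61 with slide as a term and 1 with the methods' t-test. It was 773 at an unadjusted p with 2-fold, the same 773 when an adjusted p under 0.4 was added, and 946 at the adjusted p with no fold limit. Leaving out each array in turn gave 219 (without replicate 2 of 1 month) to 418 probes. The methods' t-test had 444 probes at its own threshold and 1 after Benjamini-Hochberg adjustment. Replicate numbers did not pair the lambs (correlations of deviations -0.12, 0.11 and -0.004). The replicate block gave 313 probes, 907 for 1 month against birth (998 without it) and 262 for the difference between successive steps (662 without it). The 15 calls over the gene lists became 24 with 75th percentile scaling, 23 with no scaling, 8 with normexp, 1 with the 6 arrays, 0 with the methods' t-test, 7 with females alone, 3 with the slide term and 7 to 13 with an array left out. Among the genes picked by the naming rule, the slide term turned the sign of 17, 9 not called and 8 called. The called ones went to 0.64 for BLOC1S2, -1.27 for CD86, 1.55 for CXCL1, -0.026 for IL6, 0.29 for NOS2, 0.16 for PTGER4, -0.91 for SLC11A1 and 0.79 for WDR26, and the cause was not tested. Of the values of single genes of the naming rule under each alternative, 1106 stayed on their side of the threshold. Among those, 30 (all of genes not called) had the other sign. Another 221 lost the call, 15 gained it and the 8 above turned. Signal over background limits probes that were well above it at 1 age alone, whose fold is only a bound.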

Other observations

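Further genes outside the lists were called, and they are named here after their values were seen. TCF7, a transcription factor of T cells, read 6.02, 5.29 and 5.91 on the log2 scale at 1 month and 6.87, 6.57 and 7.13 at 2 months, a rise of 1.11 (limma adjusted p = 0.0243). The ages did not overlap. MCL1, a protein that protects cells from apoptosis, went from 11.81, 11.19 and 11.20 to 12.22, 12.64 and 12.72, a rise of 1.13 (limma adjusted p = 0.0183). PTCH1, the receptor of hedgehog ligands, rose by 1.23 on 1 of its 2 probes, which was well above background on all 6 arrays.

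Among the genes that fell, ADRB1, the β1 adrenergic receptor, read 6.83, 6.82 and 6.98 at 1 month and 5.72, 4.61 and 5.78 at 2 months, a fall of 1.50 (limma adjusted p = 0.0283). CHRNA2, a nicotinic acetylcholine receptor subunit, went from 10.33, 10.41 and 10.59 to 9.18, 9.17 and 9.25, a fall of 1.25 (limma adjusted p = 0.00925). GHRHR, the receptor of growth hormone releasing hormone, and GLP1R, that of glucagon-like peptide 1, fell by 1.09 and 1.05 (limma adjusted p = 0.0108 and 0.0185), without overlap for these 4 genes. AURKA, a kinase of mitotic spindles, fell by 1.12 (limma adjusted p = 0.0198), and USP7, a deubiquitinase, by 1.32 (limma adjusted p = 0.00359), after USP7 had been 1.70 higher at 1 month than at birth. The second GLP1R probe was not called.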
